A study of Mus musculus with 7 samples.

Results

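The MAP kinase phosphatases (MKPs) of the Dusp family were examined in RNA-seq libraries of the mouse inner cell mass (ICM), from embryos in which ERK was induced and from vehicle-treated embryos. The 10 genes Dusp1, Dusp2, Dusp4, Dusp5, Dusp6, Dusp7, Dusp8, Dusp9, Dusp10 and Dusp16 were taken by symbol from a table of 52636 genes, and each matched 1 Ensembl ID. Of these, 9 passed the filter on low counts and were among 16248 genes tested; Dusp2 did not. All embryos carried Sox2Cre and the construct named CRAFR26, through which tamoxifen switches on ERK. In this line Sox2 regulatory sequence drives Cre. Embryos of embryonic day 2.5 were kept for 24 h in medium with 250 nM of the FGF receptor inhibitor PD173074, which was present in both groups. The vehicle group (3 libraries, ethanol for 4 h) carried the label 0 h, and the tamoxifen group (4 libraries) received 250 nM 4-hydroxytamoxifen for 4 h. Trophectoderm, the outer epithelium, was taken off by immunosurgery. Each library was made from a pool of 10 ICMs, labelled as epiblast of embryonic day 3.5. The libraries derive from clones 4 and 8 of the construct and are named here as in their titles. Vehicle had clone4_1, clone4_2 and clone8_1, and tamoxifen had clone4_1, clone4_2, clone8_1 and clone8_2.

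Library totals ranged from 22981498 to 42294719 counts. Each of the 10 naive epiblast markers and 10 trophectoderm markers looked up had at least 1 count in each library, and of 10 primitive endoderm markers only Sox7 had none in a library, tamoxifen clone4_1. The estimates of all 10 trophectoderm genes were lower with tamoxifen, 0 of them called by edgeR. Their summed levels were 8530.4 to 11227 CPM with vehicle and 6546 to 9534 CPM with tamoxifen. Of the 10, Gata3, Krt7 and Elf3 had an unadjusted p under 0.05 (edgeR), where 5.97% of all genes tested had one. The groups did not overlap for 2 of the 10, against 8.45% of all genes. Summed levels were 1665 to 2044 CPM with vehicle and 1708 to 2199 CPM with tamoxifen for the naive list. For the primitive endoderm list they were 845 to 1148 CPM and 884 to 1031 CPM. Of 9 primitive endoderm genes tested, Sox17 and Lama1 were higher with tamoxifen at an unadjusted p under 0.05 (edgeR), both without overlap. Sox17 had 0.298 to 4.34 CPM with vehicle and 7.80 to 27.1 CPM with tamoxifen. For Lama1 these were 3.51 to 5.20 and 6.75 to 16.3 CPM. Of 9 naive genes tested, Klf4 alone had such a p, higher with tamoxifen, and its groups overlapped. CPM is counts scaled to library size, here with TMM factors. In each library the trophectoderm sum lay above the naive and the primitive endoderm sum. The values below are therefore levels of the whole pool, and their division among cell types was not measured. The part of these marker differences in the values below was not tested. In a bulk pool, fewer cells of a type and less RNA per cell cannot be told apart. Vehicle clone8_1 was short of transcripts under 1000 nt, with a median deviation of -1.29 (log2) over 1162 such genes. It deviated by 0.033 over 8307 genes of 1600 to 5000 nt. The latter range was set to hold the MKP transcripts, at typical lengths of 1617 to 4804 nt. Dusp2 (1617 nt) and Dusp1 (1809 nt) lie at its short end, and the deviation of genes near their length was not looked at separately.

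MAP kinases are switched on by phosphorylation of a threonine and a tyrosine in their activation loop, and MKPs remove both phosphates. Several MKP genes are themselves transcribed in response to ERK, which makes them negative feedback regulators, and transcripts such as Dusp6 are widely read as a record of recent FGF and ERK signalling in the early embryo. By location and substrate the family falls into nuclear inducible enzymes (Dusp1, Dusp2, Dusp4, Dusp5), cytoplasmic enzymes selective for ERK (Dusp6, Dusp7, Dusp9), and enzymes that prefer the stress kinases JNK and p38 (Dusp8, Dusp10, Dusp16).

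Promoter sequences were available from RefSeq (GRCm38.p6) for 8 of the 10 genes, all but Dusp4 and Dusp9. The 250 bases before the annotated start were searched on both strands for the cyclic AMP response element TGACGTCA (CRE), the AP-1 site TGANTCA, the ETS site CCGGAA, and the CArG box bound by serum response factor. Over 32851 promoters of that length, 1.55% held the CRE, 6.75% the AP-1 site, 12.0% the ETS site and 1.47% the CArG box. Among the MKP genes only Dusp1, Dusp5 and Dusp8 held any of these. The Dusp1 window had a CRE at -143, and Dusp8 had CREs at -107 and -63, counted from the start to the first base of the motif. Dusp5 had adjacent CArG boxes at -82 and -72. The windows of Dusp1, Dusp8 and Dusp10 lie inside the GENCODE gene spans given below, which begin further upstream, so they belong to the RefSeq start only. Dusp1, Dusp5 and Dusp8 are shown because they hold the matches, and Dusp10 because it was the gene whose groups did not overlap. Capitals mark the matches, and each is written 5′ to 3′ on the strand of its gene.
Dusp1, chr17:26508473-26508722, minus strand: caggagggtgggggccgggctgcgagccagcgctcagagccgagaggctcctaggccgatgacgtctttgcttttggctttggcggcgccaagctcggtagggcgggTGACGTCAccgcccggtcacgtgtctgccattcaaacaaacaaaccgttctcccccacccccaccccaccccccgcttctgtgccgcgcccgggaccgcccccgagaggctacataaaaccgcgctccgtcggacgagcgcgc
Dusp8, chr7:142095285-142095534, minus strand: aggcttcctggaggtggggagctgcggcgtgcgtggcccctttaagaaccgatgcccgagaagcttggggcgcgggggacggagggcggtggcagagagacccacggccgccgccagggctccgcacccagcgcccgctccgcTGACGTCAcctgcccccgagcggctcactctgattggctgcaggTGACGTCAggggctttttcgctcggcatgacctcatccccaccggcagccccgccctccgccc
Dusp5, chr19:53528895-53529144, plus strand: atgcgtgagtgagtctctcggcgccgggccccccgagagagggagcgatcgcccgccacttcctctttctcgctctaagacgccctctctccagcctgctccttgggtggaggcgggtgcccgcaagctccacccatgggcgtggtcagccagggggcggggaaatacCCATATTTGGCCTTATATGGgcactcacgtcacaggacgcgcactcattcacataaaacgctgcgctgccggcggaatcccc
Dusp10, chr1:184034131-184034380, plus strand: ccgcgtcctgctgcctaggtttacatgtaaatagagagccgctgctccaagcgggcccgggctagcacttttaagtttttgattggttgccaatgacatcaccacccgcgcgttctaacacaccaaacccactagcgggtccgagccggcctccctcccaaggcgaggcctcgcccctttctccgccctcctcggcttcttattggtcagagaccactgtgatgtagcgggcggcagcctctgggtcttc
A match describes letters in the window, and the libraries carry no measure of binding.

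Levels between genes were compared per length, as CPM per kilobase of typical transcript (CPM per kb). In vehicle libraries the family split into 4 abundant and 6 less abundant transcripts. Dusp1 was highest at 33.1 ± 14.8 CPM per kb (SD, n = 3). Dusp10 followed at 16.8 ± 1.31, Dusp4 at 15.5 ± 7.26 and Dusp6 at 14.9 ± 4.68 CPM per kb (SD, n = 3 each). The ranges of neighbours in this order overlapped, so the order among these 4 is not resolved. Below Dusp6 came a gap with no overlap, and Dusp9 lay at 2.21 ± 1.49 CPM per kb (SD, n = 3). Dusp16 (2.01 ± 0.933), Dusp8 (0.867 ± 1.05), Dusp5 (0.704 ± 0.197), Dusp7 (0.406 ± 0.342) and Dusp2 (0.0856 ± 0.0734 CPM per kb; SD, n = 3 each) completed the order, each overlapping the next. Each class of MKP thus had at least 1 abundant member: Dusp1 and Dusp4 among the nuclear, Dusp6 among the cytoplasmic and Dusp10 among the stress kinase enzymes. Over all 7 libraries Dusp1 stood at the 77.8th percentile of per-length level among genes tested. Dusp9 stood at the 43.0th, Dusp16 at the 39.8th and Dusp7 at the 13.4th.

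**Figure D1:**
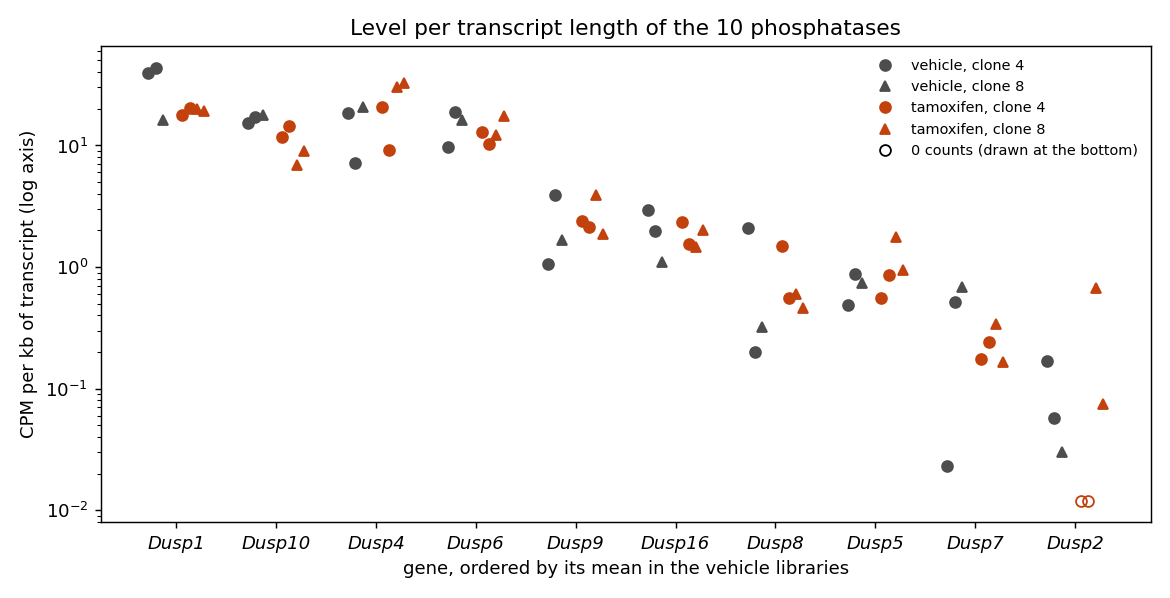
Level of each MKP transcript in each library, in CPM per kilobase of transcript on a log axis, with genes ordered by their vehicle mean. Points are libraries, circles for clone 4 and triangles for clone 8; Dusp1, Dusp10, Dusp4 and Dusp6 lie above the other 6 genes in vehicle, and open symbols mark 0 counts of Dusp2.

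The summed per-length level of the family was 90.0, 94.3 and 75.6 CPM per kb in vehicle clone4_1, clone4_2 and clone8_1. It was 70.3, 59.5, 77.9 and 83.9 CPM per kb in tamoxifen clone4_1, clone4_2, clone8_1 and clone8_2, so the groups overlapped. The make-up of that sum varied. Dusp1 supplied 21.4% to 46.4% of it in vehicle and 22.7% to 34.0% in tamoxifen libraries, and Dusp4 supplied 7.62% to 27.3% and 15.5% to 39.1%. Dusp6 held a narrower share than either, 10.7% to 21.5% with vehicle and 15.5% to 20.8% with tamoxifen. The share of Dusp10 was narrower still with vehicle, 17.1% to 23.7%, but ran from 8.91% to 24.3% with tamoxifen.

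The comparison asked whether 4 h of ERK induction altered these transcripts under FGF receptor inhibition. With Benjamini-Hochberg adjustment over all genes, 0 of the 9 MKP genes tested were called by edgeR's quasi-likelihood test, as were 0.0% of all genes, and DESeq2 called 0 of the 8 for which it gave an adjusted p (it gave none for Dusp8). At an unadjusted p under 0.05 stood 2 of them, Dusp1 and Dusp10, both lower with tamoxifen, where 5.97% of all genes tested had such a p, 3.28% with a lower and 2.69% with a higher level. Without vehicle clone4_2 that count was 0 (Dusp1 unadjusted p = 0.123, Dusp10 unadjusted p = 0.0509, edgeR), as it was with the replicate block. Without vehicle clone4_1 it was 3, with Dusp7 and Dusp10 lower and Dusp8 higher, and Dusp1 had unadjusted p = 0.0809 (edgeR). With clone as an added term Dusp10 alone was left (Dusp1 unadjusted p = 0.0678, edgeR), and without tamoxifen clone8_2 Dusp1 alone (Dusp10 unadjusted p = 0.0567, edgeR). The number over all genes moved too, from 970 of 16248 in the main fit. It was 1170 of 17100 without vehicle clone4_2, 721 of 16248 with the replicate block and 1516 of 16896 without vehicle clone4_1. With clone as an added term it was 989 of 16248, and without tamoxifen clone8_2 it was 1027 of 15589. Of the 9 genes, 3 were higher and 6 lower, with a median log2 fold change of -0.16; over all genes it was 0.019, and 51.7% were higher. With clone as an added term the tally turned to 5 higher and 4 lower (median 0.044), and with the replicate block it was also 5 and 4 (median 0.0062). The groups did not overlap for 1 of the 9, Dusp10, against 8.45% of all genes.

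**Figure D2:**
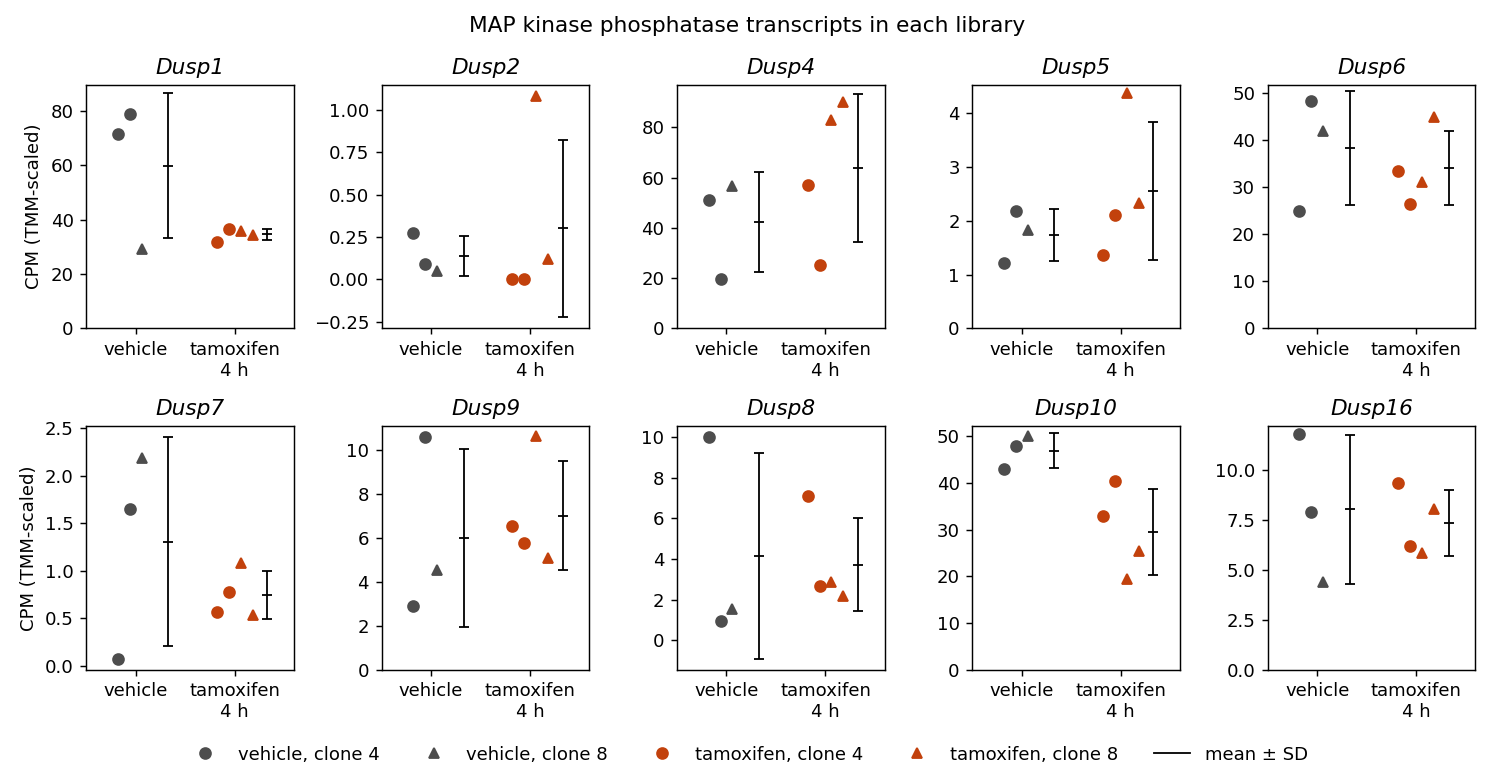
CPM of the 10 MKP transcripts by library, with vehicle in grey, tamoxifen in orange, circles for clone 4 and triangles for clone 8; bars give the mean ± SD of each group (n = 3 and n = 4). Dusp10 is the gene whose groups do not overlap, and Dusp1 is high in the vehicle libraries of clone 4 alone.

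Among the nuclear enzymes, Dusp1 (ENSMUSG00000024190, GRCm38 chromosome 17, 26505590 to 26562128, minus strand) is the classical immediate early phosphatase, which acts on p38 and JNK as well as ERK. Its level was 71.5, 79.1 and 29.3 CPM in vehicle clone4_1, clone4_2 and clone8_1. In tamoxifen clone4_1, clone4_2, clone8_1 and clone8_2 it was 32.0, 36.6, 35.9 and 34.5 CPM. Both vehicle libraries of clone 4 were thus high, and the vehicle library of clone 8 lay below all 4 tamoxifen libraries, which were close to each other. The group means were 60.0 ± 26.8 CPM (SD, n = 3) and 34.7 ± 2.03 CPM (SD, n = 4). The log2 fold change was -0.79 ± 0.29 (SE; unadjusted p = 0.0232, adjusted p = 0.794, edgeR's quasi-likelihood test). Without vehicle clone8_1 it was -1.13 ± 0.17 (SE; adjusted p = 0.338, edgeR), and without vehicle clone4_2 it was -0.54 ± 0.32 (SE; adjusted p = 0.732, edgeR). The annotated span of Dusp1 overlaps Ergic1 on the other strand by 640 nt, and Ergic1 had 10.3 to 30.3 CPM.

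The interaction of clone and condition was tested for all genes. Within clone 4, at 2 libraries per condition, Dusp1 changed by -1.14 ± 0.19 on the log2 scale (SE; unadjusted p = 0.000488, adjusted p = 0.550, edgeR). In clone 8 it went from 29.3 CPM in the single vehicle library to a mean of 35.2 CPM in 2 tamoxifen libraries. The interaction was 1.40 ± 0.34 on the log2 scale (SE; unadjusted p = 0.00287, adjusted p = 0.0747, edgeR), so it missed the threshold. With DESeq2 its adjusted p was 0.00521, and without a filter on low counts 0.0370 in edgeR. Of the 9 genes, Dusp1 was the only member with an unadjusted interaction p under 0.05, where 14.8% of all genes had it, and 0 members were called with adjustment, where 3.16% of all genes were. The clone 8 vehicle arm is vehicle clone8_1 alone, so a difference between clones and one of that library cannot be told apart by any of these p-values.

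Dusp4 (ENSMUSG00000031530, chromosome 8, 34807297 to 34819894, plus strand) encodes a nuclear phosphatase of ERK and JNK that is itself induced by ERK. It had 51.0, 19.7 and 56.6 CPM in vehicle clone4_1, clone4_2 and clone8_1. The tamoxifen values were 57.1, 25.3, 83.1 and 89.9 CPM in clone4_1, clone4_2, clone8_1 and clone8_2. Both libraries numbered clone4_2 were low, the groups overlapped, and the tamoxifen libraries of clone 8 were the highest of all. The means were 42.4 ± 19.9 CPM (SD, n = 3) and 63.8 ± 29.3 CPM (SD, n = 4). Its log2 fold change of 0.59 ± 0.45 (SE; adjusted p = 0.805, edgeR) was the highest estimate of the family. The estimate was positive in each of 14 alternatives, between 0.21 and 0.84. The gene varied more between libraries of a group than genes of its level do, with a coefficient of biological variation of 0.409 against a trend of 0.240 in the fit.

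Dusp5 (ENSMUSG00000034765, chromosome 19, 53529109 to 53542431, plus strand), a nuclear phosphatase specific for ERK, was scarce. It had 1.22, 2.18 and 1.83 CPM in the vehicle libraries clone4_1, clone4_2 and clone8_1, from 49, 70 and 75 counts. The tamoxifen libraries clone4_1, clone4_2, clone8_1 and clone8_2 had 1.37, 2.11, 4.37 and 2.33 CPM. Tamoxifen clone8_1 and clone8_2 lay above the vehicle range, and the groups overlapped. The log2 fold change was 0.55 ± 0.51 (SE; adjusted p = 0.837, edgeR), and without tamoxifen clone8_1 it was 0.16. This is the gene whose promoter window, printed above, holds the CArG boxes.

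Dusp2 (ENSMUSG00000027368, chromosome 2, 127336159 to 127338376, plus strand), an immediate early phosphatase best known in blood cells, was close to absent. It was counted 11, 3 and 2 times in vehicle clone4_1, clone4_2 and clone8_1. The counts were 0, 0, 30 and 5 in tamoxifen clone4_1, clone4_2, clone8_1 and clone8_2. For a count of 0 the upper limit of the 95% interval was 3.69 counts, for counting error only. A floor of 3 counts was set, which is 0.0710 and 0.129 CPM in those 2 libraries. The 30 counts of tamoxifen clone8_1 lay above all others. Dusp2 failed the filter and was not tested in the comparison.

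Among the cytoplasmic enzymes, Dusp6 (ENSMUSG00000019960, chromosome 10, 99263231 to 99267489, plus strand) is the best known transcriptional readout of FGF and ERK signalling. Its level was 24.9, 48.2 and 41.9 CPM in vehicle clone4_1, clone4_2 and clone8_1. With tamoxifen it was 33.5, 26.5, 31.2 and 44.9 CPM in clone4_1, clone4_2, clone8_1 and clone8_2. All 4 tamoxifen values fell inside the vehicle range. The log2 fold change was -0.17 ± 0.26 (SE; adjusted p = 0.894, edgeR), and it was 0.026 without vehicle clone4_2. Its ratio of 1.94 between the highest and lowest library was the smallest among the 9 genes tested. Its coefficient of biological variation was 0.262 against a trend of 0.253, and Dusp10 was slightly lower at 0.248.

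Dusp9 (ENSMUSG00000031383, chromosome X, 73639419 to 73643514, plus strand) is an ERK-selective phosphatase that keeps ERK activity low in pluripotent cells. It had 2.88, 10.6 and 4.56 CPM in vehicle clone4_1, clone4_2 and clone8_1. The tamoxifen libraries clone4_1, clone4_2, clone8_1 and clone8_2 had 6.56, 5.78, 10.7 and 5.07 CPM. The highest library of each group reached nearly the same level. The log2 fold change of 0.23 ± 0.47 (SE; adjusted p = 0.923, edgeR) changed sign without vehicle clone4_1 (-0.12) and without tamoxifen clone8_1 (-0.047).

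Dusp7 (ENSMUSG00000053716, chromosome 9, 106368632 to 106375724, plus strand), a cytoplasmic ERK phosphatase close to Dusp6, was scarce and in vehicle clone4_1 was at the floor of 3 counts. It had 3, 53 and 90 counts in vehicle clone4_1, clone4_2 and clone8_1, or 0.0744, 1.65 and 2.19 CPM. Tamoxifen clone4_1, clone4_2, clone8_1 and clone8_2 had 24, 18, 30 and 22 counts, or 0.568, 0.776, 1.08 and 0.534 CPM. The tamoxifen values lay between the lowest vehicle library and the other two. The log2 fold change was -0.82 ± 0.89 (SE; adjusted p = 0.851, edgeR), and without vehicle clone4_1 it was -1.40 (adjusted p = 0.551, edgeR). Without vehicle clone8_1 the Dusp7 estimate was -0.22.

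Among the stress kinase enzymes, Dusp10 (ENSMUSG00000039384, chromosome 1, 184013302 to 184075636, plus strand) dephosphorylates p38 and JNK with little action on ERK. It had 42.9, 47.9 and 50.1 CPM in vehicle clone4_1, clone4_2 and clone8_1. The tamoxifen values were 32.8, 40.4, 19.4 and 25.3 CPM in clone4_1, clone4_2, clone8_1 and clone8_2. All 4 tamoxifen libraries were below all 3 vehicle libraries, those of clone 8 furthest. The means were 47.0 ± 3.66 CPM (SD, n = 3) and 29.5 ± 9.14 CPM (SD, n = 4), and the log2 fold change was -0.67 ± 0.25 (SE; unadjusted p = 0.0212, adjusted p = 0.794, edgeR's quasi-likelihood test). By unadjusted p it ranked 403 among 16248 genes, and Dusp1 ranked 453. The estimate was negative in each of 14 alternatives, from -0.87 to -0.32, with adjusted p between 0.479 and 0.961. Within clone 4 alone it was -0.32 ± 0.21 (SE; adjusted p = 0.760, edgeR). The interaction with clone was -0.85 ± 0.38 (SE; unadjusted p = 0.0539, adjusted p = 0.347, edgeR). Dusp10 overlaps 1700056E22Rik on the other strand by 1272 nt, and that gene had 0.521 to 3.54 CPM.

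Dusp16 (ENSMUSG00000030203, chromosome 6, 134715468 to 134792625, minus strand), a phosphatase of JNK and p38, had 11.8, 7.88 and 4.36 CPM in vehicle clone4_1, clone4_2 and clone8_1. Tamoxifen clone4_1, clone4_2, clone8_1 and clone8_2 had 9.35, 6.21, 5.81 and 8.04 CPM. The tamoxifen values lay inside the vehicle range. Its log2 fold change was -0.12 ± 0.37 (SE; adjusted p = 0.951, edgeR), and it was 0.26 without vehicle clone4_1.

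Dusp8 (ENSMUSG00000037887, chromosome 7, 142079490 to 142095843, minus strand), a phosphatase of JNK and p38 known mainly from brain and heart, had 10.0, 0.965 and 1.53 CPM in vehicle clone4_1, clone4_2 and clone8_1. The tamoxifen libraries clone4_1, clone4_2, clone8_1 and clone8_2 had 7.13, 2.67, 2.89 and 2.21 CPM. Both libraries numbered clone4_1 were high, with 403 counts in vehicle and 301 in tamoxifen. The log2 fold change of -0.16 ± 0.76 (SE; adjusted p = 0.971, edgeR) turned to 1.55 ± 0.62 (SE; adjusted p = 0.551, edgeR) without vehicle clone4_1. It was 0.027 without tamoxifen clone8_2.

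**Figure D3:**
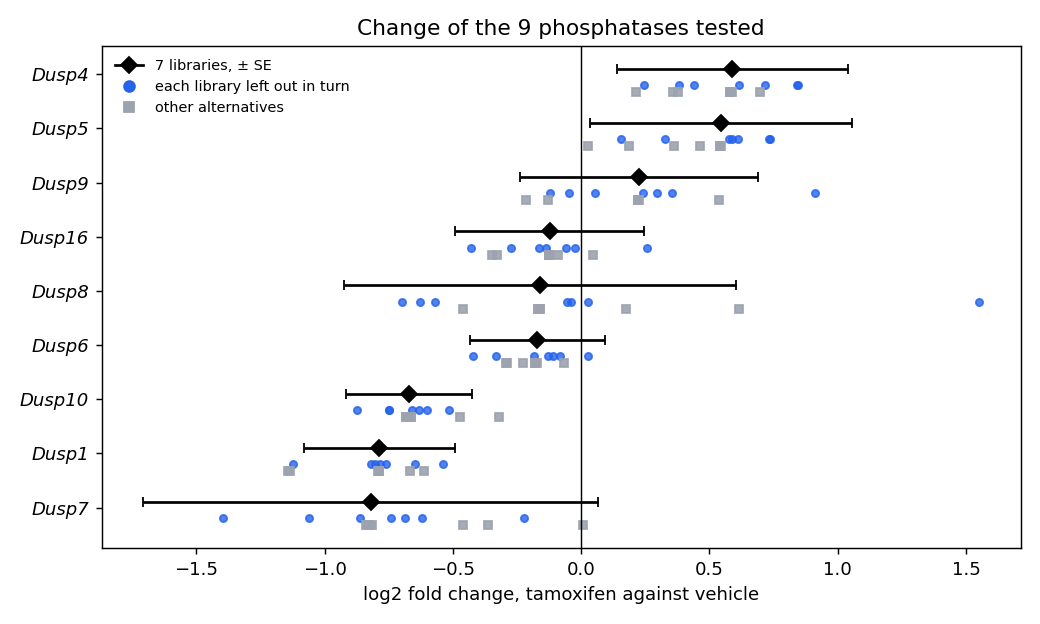
Log2 fold change of each of the 9 MKP genes tested, tamoxifen against vehicle. Diamonds with bars give the estimate from 7 libraries ± SE, blue points the fits that each left out a library, and grey squares the other alternatives; Dusp1 and Dusp10 stay below 0 and Dusp4 and Dusp5 above 0 in each of them.

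Vehicle clone4_1 was the lowest library for Dusp5, Dusp6, Dusp7 and Dusp9 and the highest for Dusp8 and Dusp16. The cytoplasmic genes Dusp6, Dusp7 and Dusp9 thus shared their lowest library. Their summed level there was 10.7 CPM per kb, against 12.6 to 23.1 CPM per kb in the others. Dusp6 alone supplied 9.66 CPM per kb of that 10.7, and Dusp7 rested on 3 counts. The share of all genes that were lowest in vehicle clone4_1 was not computed. Tamoxifen clone8_1 was the highest for Dusp2, Dusp5 and Dusp9 and the lowest for Dusp10. By the ratio of mean CPM in each clone, 3 of the 9 genes (Dusp6, Dusp7, Dusp10) were lower with tamoxifen in both clones and 2 (Dusp4, Dusp5) were higher in both. The other 4, Dusp1, Dusp8, Dusp9 and Dusp16, had opposite directions, each lower in clone 4 and higher in clone 8. The clone 8 ratios rest on vehicle clone8_1 alone, and the share of all genes with each pattern of directions was not computed. Over all genes, 510 of the 514 called for the interaction had clone 8 above clone 4. These were selected by adjusted p, and a positive interaction need not mean opposite directions, so they are no background for this pattern. Whether the directions are particular to the MKP genes was not tested.

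The kinases, the relatives of the MKPs and the other feedback genes were taken as lists. With edgeR's quasi-likelihood test 0 of these genes had an adjusted p under 0.05. Of 10 MAP kinase genes, all tested, 4 were higher and 6 lower (median log2 fold change -0.0057). Mapk8, which encodes the kinase JNK1 and so a substrate of Dusp10, averaged 20.1 ± 3.40 CPM with vehicle (SD, n = 3) against 12.5 ± 1.51 CPM with tamoxifen (SD, n = 4). It changed by -0.69 ± 0.22 on the log2 scale (SE; unadjusted p = 0.0113, adjusted p = 0.794, edgeR), without overlap between the groups. Mapk11, a p38 gene, was rare in vehicle (0.344 ± 0.336 CPM; SD, n = 3) and had 1.85 ± 0.974 CPM (SD, n = 4) with tamoxifen, a difference on the log2 scale of 2.41 ± 0.96 (SE; unadjusted p = 0.0302, adjusted p = 0.794, edgeR). Mapk12, another p38 gene, had the lowest estimate of the list at -0.78 ± 1.36 (SE), from at most 0.496 CPM. The 7 MAP kinase kinase genes had 4 higher and 3 lower, from -0.36 (Map2k6) to 0.27 (Map2k4), and none had an unadjusted p under 0.05.

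Of 16 atypical dual-specificity phosphatases and STYX proteins, which lack the kinase docking domain of the MKPs, 12 were tested, 7 higher and 5 lower. Dusp18 averaged 13.1 ± 4.40 CPM with vehicle (SD, n = 3) against 7.30 ± 1.20 CPM with tamoxifen (SD, n = 4), a log2 change of -0.85 ± 0.29 (SE; unadjusted p = 0.0163, adjusted p = 0.794, edgeR) with overlapping groups. Dusp22 had the highest estimate of that list, 1.42 ± 1.15 (SE), from 0.0496 to 1.09 CPM with vehicle and 0.243 to 1.89 CPM with tamoxifen. The tyrosine phosphatases Ptpn5, Ptpn7 and Ptprr, which dock on MAP kinases by a similar motif, all failed the filter.

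Among 6 tested Sprouty and Spred genes, 4 were higher and 2 lower (median 0.35). Spry2, whose product inhibits signalling from receptor to ERK, was at 45.4 to 82.5 CPM with vehicle and 109 to 129 CPM with tamoxifen (unadjusted p = 0.00229, adjusted p = 0.794, edgeR). Spred1 changed by 1.27 ± 0.54 on the log2 scale (SE; unadjusted p = 0.0419, adjusted p = 0.794, edgeR), at 0.595 to 1.28 CPM with vehicle and 1.16 to 3.14 CPM with tamoxifen. Spred3 had the lowest estimate at -0.87 ± 0.73 (SE). Of 10 other ERK-responsive genes 6 were higher and 4 lower. Fos, an immediate early gene, was at 44.2 to 95.6 CPM with vehicle and 16.2 to 42.1 CPM with tamoxifen (unadjusted p = 0.00343, adjusted p = 0.794, edgeR). Etv4, an ETS factor, had the highest estimate of this list at 2.17 ± 1.01 (SE; unadjusted p = 0.0567, adjusted p = 0.794, edgeR), from at most 0.374 CPM in vehicle. These genes share their vehicle libraries with the MKPs, so their values stand side by side and are no separate support.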

How the data were processed

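The deposited file holds raw counts per Ensembl gene for 7 libraries, not normalised by the authors as far as the values show. Per the submitters' processing notes, bcl2fastq 2.19.1, STAR 2.5.3a and build mm10 were used; the counting program, annotation, strand setting and duplicate handling are not given in the sources used here. Libraries were made from 2 ng of RNA with a low-input amplification kit and no molecular identifiers are mentioned, so counting intervals cover counting error only. Symbols, coordinates and lengths are from GENCODE M21 (GRCm38); 52489 of 52636 gene IDs matched. The typical length is the median over a gene's basic protein-coding transcripts.

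Counts were fitted with edgeR 4.0.16 in R 4.3.3 (TMM factors, filterByExpr by group, quasi-likelihood test, design with condition alone). Benjamini-Hochberg adjustment of p-values was over 16248 genes, and an adjusted value under 0.05 was called. SE is the absolute log2 fold change over the square root of F. The interaction model added clone. DESeq2 1.42.0, other scaling, no filter, clone or replicate terms and left-out libraries were the alternatives. On simulated data with 100 genes changed by a log2 of 2 and 100 by 3, the comparison of conditions recovered 64% and 91% of them, and the interaction 3% and 5%. The labels call the libraries replicates from 2 clones; whether pools came from separate litters is not given, so p-values measure the spread between these pools. All pairs of libraries differed by more than sampling noise (chi-square over degrees of freedom of at least 23.9).

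All 10 members are named. Genes of the kinase, phosphatase and feedback lists are named when their unadjusted p was under 0.05 or their change was the highest or lowest of the list. Markers of cell types are named when their unadjusted p was under 0.05, and Sox7 for its count of 0. The members and lists were chosen with earlier results of these data known.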

Additional observations from a re-analysis of the deposited data

Results flagged for a closer look

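In the tamoxifen group of 4 libraries, 2 of the 10 MKP genes had a library far from the other 3, by a Dixon ratio above the 95% critical value. Chance flags about 1 in 20 groups. Dusp2 was at 1.08 CPM in tamoxifen clone8_1, with a ratio of 0.888, while the other 3 libraries had 0 to 0.121 CPM. Dusp8 was at 7.13 CPM in tamoxifen clone4_1, with a ratio of 0.862, and the other 3 had 2.21 to 2.89 CPM. The vehicle library numbered clone4_1 was also high for Dusp8, at 10.0 CPM.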

How the results depend on the processing

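Over 14 alternatives 0 of the 9 MKP genes tested were called for condition. DESeq2 gave no p for Dusp8. Dusp2 failed the filter on low counts, and its estimate from the fit without that filter is not given here. Dusp1, Dusp4, Dusp5 and Dusp10 kept their direction in each of them. With clone as an added term the sign was reversed for Dusp8 (0.17) and Dusp16 (0.044). The replicate block gave 0.0062 for Dusp7 and 0.61 for Dusp8, both reversed. It left 0 of the 9 genes at an unadjusted p under 0.05, where 721 of 16248 genes had one. Deviations of same-numbered libraries from their group means correlated at 0.0078, 0.021 and -0.068 across genes. All pairs of a vehicle and a tamoxifen library lay between -0.085 and 0.062. Deviations within a group of 3 or 4 libraries are tied to each other, so these values cannot decide whether the numbers pair the libraries. No vehicle library correlated best with its own number. Dusp9 was reversed without both clone8_1 libraries (-0.22) and in clone 4 only (-0.13). With each library left out in turn, Dusp9 ranged from -0.12 to 0.91, Dusp8 from -0.70 to 1.55, Dusp16 from -0.43 to 0.26 and Dusp6 from -0.42 to 0.026.

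Across all genes, DESeq2 called 4 for condition and the fit without both clone8_1 libraries called 2, against 0. Clone and condition interacted in 514 genes, positively (clone 8 above clone 4) in 510 and negatively in 4. All rest on vehicle clone8_1, whose median deviation over transcripts under 1000 nt was -1.29 on the log2 scale. The number was 991 without a filter, 1023 with DESeq2, 962 with the replicate block, and 52 to 695 with each library left out in turn. It could not be fitted without vehicle clone8_1, without both clone8_1 libraries or in clone 4 only. The interaction of Dusp6 was reversed with the replicate block (-0.21). With each library left out in turn, the interaction ranged from -0.41 to 0.52 for Dusp6, -0.48 to 1.05 for Dusp4, -1.64 to 1.75 for Dusp8 and -0.32 to 1.53 for Dusp9. For Dusp1 it was 1.26 to 1.48, with adjusted p from 0.00521 to 0.332 over 10 alternatives. The cause was not tested for these changes.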
